A study of Mus musculus with 22 samples.

Results

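Muscle stem cells collected 1 day after cardiotoxin injury at ZT16 were compared with stem cells of uninjured muscle at ZT16. The 2 groups were taken by their sample labels and hold 7 of the 22 libraries of the series, 4 at day 1 (1dpi_ZT16) and 3 from uninjured muscle (QSC_ZT16). ZT is zeitgeber time, in hours from lights on, so ZT16 lies in the dark phase and ZT4 in the light phase. Cardiotoxin is a snake venom toxin that destroys myofibers and starts regeneration. The 4 day 1 libraries at ZT4 (1dpi_ZT4) and the 3 uninjured libraries at ZT4 (QSC_ZT4) were used to see which changes depend on the dark-phase baseline. All mice of all 4 groups were Pax7-zsgreen, with the fluorescent protein ZsGreen marking cells that express Pax7. All were perfused with a mild aldehyde fixative before hindlimb cells were sorted for ZsGreen. A ZsGreen gate follows the reporter and not the Pax7 transcript at the moment of collection. The labels tie ZT4 and ZT16 to the injury, and at day 1 the collection hour is missing from them. Whether each replicate is its own mouse is also unstated, so p-values measure spread between libraries. That spread was estimated from all 22 libraries of the series, including those outside these 4 groups, and not from the compared libraries alone.

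Muscle stem cells rest in quiescence beneath the basement membrane of the myofiber and leave it within hours of injury. Their molecular clock is a feedback loop in which BMAL1 and CLOCK drive the PER, CRY and REV-ERB repressors, and its output passes through transcription factors of the D-box family. Sterol synthesis is driven by the factor SREBP2 when membranes lack cholesterol, and liver X receptors drive sterol export when it is plentiful. Early response genes such as Fos and Egr1 are transcribed within minutes of a stimulus.

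Library totals were 6613298 to 7929169 estimated counts in the day 1 libraries and 6483052 to 7431508 in the uninjured ones. Levels are given in CPM (counts relative to the library total, scaled by TMM), so each one depends on what else a library holds. A change is given as log2 fold change ± SE of the edgeR fit, and a gene was called at an adjusted p under 0.05. Across libraries of a group, correlations of log2 CPM were 0.9507 to 0.9773 at day 1 and 0.9371 to 0.9589 in uninjured muscle. Uninjured ZT16 replicates 1 and 3 stood apart from replicate 2 in the early response genes. Day 1 replicate 4 stood apart from the other day 1 libraries in the same genes and in other lists. Its summed CPM was 234.1 against 445.8 to 614.5 for clock repressors and 285.9 against 403.2 to 532.3 for clock output genes. For glucocorticoid-linked genes it was 1667 against 3080 to 3119, and for quiescence genes 3000 against 4504 to 5243. For many results that rest on these libraries, values are given with and without them. All 11 markers of muscle stem cells had counts in both groups. Of 15084 genes tested, 9860 were called between day 1 and uninjured muscle at ZT16 (65.4%), 4646 higher (30.8%) and 5214 lower (34.6%) at day 1, and the median over all genes was −0.14. The day 1 change itself differed between ZT16 and ZT4 in 1125 genes (7.46%), more positive at ZT16 in 593 (3.93%) and more negative in 532 (3.53%). In the same comparison made at ZT4, which shares no library with the one at ZT16, 64.2% of genes were called, 30.1% higher and 34.2% lower, with a median of −0.12. Between the uninjured groups, ZT16 against ZT4, 2663 of the 15084 genes were called. Between the day 1 groups, ZT16 against ZT4, 0 genes were called. A called difference of the day 1 change therefore does not by itself mean that day 1 levels differed between the times.

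**Figure D1:**
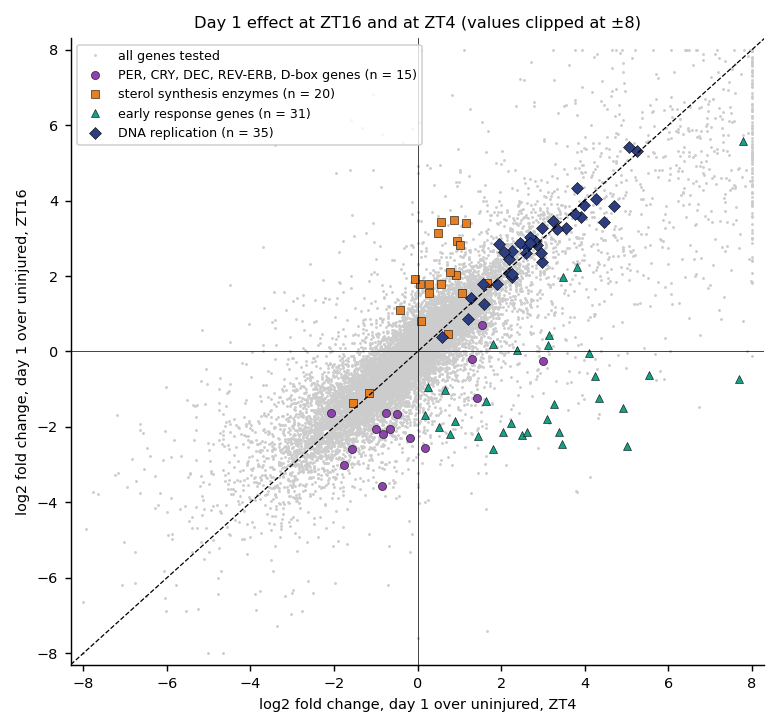
Log2 fold change of day 1 over uninjured muscle for each gene tested, at ZT16 (vertical axis) against ZT4 (horizontal axis), with values beyond 8 drawn at 8 and the dashed line marking equal change. Replication genes lie along the line, most sterol synthesis enzymes above it, and early response and most clock repressor and output genes below it.

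The repressors of the clock were lower at day 1 than in uninjured muscle at ZT16. Of 8 period, cryptochrome and DEC genes, 5 fell, none rose and 3 were not called, with a median log2 change of −1.86. At ZT4 the median of the same genes was −0.34, with 2 lower and 3 higher at day 1. The day 1 change was called as different between the times in 4 of the 8, all more negative at ZT16. In bulk RNA, fewer cells of a type and less RNA per cell cannot be told apart.

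Per2 encodes a core repressor of BMAL1 (chromosome 1, 91415982 to 91459324 on GRCm38). It had 47.2, 41.6, 47.5 and 28.8 CPM in day 1 libraries at ZT16, against 209.8, 155 and 241 CPM in uninjured libraries at ZT16. All 4 day 1 libraries lay below all 3 uninjured ones, with a log2 change of −2.29 ± 0.39 (adjusted p = 5.6e-05). At ZT4 it had 23.9, 28.6, 20.7 and 24.3 CPM at day 1 and 9.37, 17.4 and 57.0 CPM in uninjured muscle, ranges that overlapped (log2 −0.17 ± 0.42, adjusted p = 0.731). The difference of the changes was −2.12 ± 0.57 (adjusted p = 0.0326) and lost its call without day 1 ZT16 replicate 4, uninjured ZT16 replicate 1 or 3, day 1 ZT4 replicate 2 or 4, or uninjured ZT4 replicate 2 (adjusted p from 0.0549 to 0.0836). Set against the uninjured ZT4 libraries, the day 1 ZT16 libraries showed a Per2 change of 0.59 ± 0.41 (adjusted p = 0.221). Without uninjured ZT4 replicate 3 the difference of Per2 was −3.15.

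Per3, another period gene, had 25.9, 30.8, 25.8 and 13.985 CPM in day 1 libraries at ZT16 and 173, 241 and 167 CPM in uninjured libraries, again without overlap (log2 −3.003 ± 0.26, adjusted p = 1.34e-09). It was also lower at day 1 at ZT4 (−1.77 ± 0.26), with a difference of −1.23 ± 0.36 that lost its call without any 1 of the 14 libraries other than day 1 ZT16 replicate 2, day 1 ZT4 replicate 3, or uninjured ZT4 replicate 3 (adjusted p from 0.0501 to 0.0922). Bhlhe41, which encodes the repressor DEC2, changed by −2.20 ± 0.22 at ZT16 and by −0.82 ± 0.22 at ZT4 (difference −1.38 ± 0.32, adjusted p = 0.0107). Per1 (−2.06 ± 0.48) and Cry2 (−1.66 ± 0.26) fell at ZT16, and neither difference between the times was called (adjusted p = 0.246 and 0.0657). Without uninjured ZT4 replicate 3, which carried the highest Per1 and Cry2 of its group, both differences were called (−2.33 and −1.59), and that of Cry2 was also called without day 1 ZT16 replicate 1 (adjusted p = 0.0351).

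Cry1 was among the 3 repressors not called at ZT16. It encodes a cryptochrome that blocks BMAL1 and CLOCK. It had 63.4, 48.4, 67.3 and 53.4 CPM in day 1 libraries and 73.5, 54.1 and 72.8 CPM in uninjured libraries at ZT16, ranges that overlapped (−0.20 ± 0.24, adjusted p = 0.473). At ZT4 it had 40.6, 42.9, 51.5 and 49.8 CPM at day 1 and 20.0, 7.67 and 29.5 CPM in uninjured muscle, without overlap (1.29 ± 0.26), and the difference was called (−1.49 ± 0.35, adjusted p = 0.0129). Bhlhe40, which encodes DEC1, and Ciart, a repressor of BMAL1, were not called at ZT16 (−1.22 ± 0.57 and 0.70 ± 0.37). The ZT16 change of Bhlhe40 was called without uninjured replicate 2 (−1.54) or day 1 replicate 1 (−1.503), and that of Ciart without uninjured replicate 2 (1.04). The 2 genes rose at ZT4 (1.42 ± 0.60 and 1.54 ± 0.39), and their differences were not called with all libraries (adjusted p = 0.0654 and 0.364), that of Bhlhe40 being called without uninjured ZT16 replicate 2 (adjusted p = 0.0178).

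The output genes of the clock fell at ZT16 too. Of 7 REV-ERB and D-box output genes, 6 fell and Nfil3 was not called, and all 6 held without any 1 library. The median log2 change was −2.06 at ZT16 and −0.85 at ZT4. Tef, a D-box activator, had 100.88, 120.0, 122 and 82.2 CPM in day 1 libraries and 433, 448 and 445 CPM in uninjured libraries at ZT16. The uninjured values lay close together and far above day 1 (−2.06 ± 0.14, adjusted p = 7.22e-12). At ZT4 Tef had 114, 100.99, 94.4 and 95.7 CPM at day 1 and 146, 213 and 252 CPM in uninjured muscle (−1.01 ± 0.14), and the difference between the times was −1.05 ± 0.20 (adjusted p = 0.00306). Hlf, a related D-box activator, had 6.07, 5.53, 6.73 and 4.57 CPM at day 1 and 38.5, 27.7 and 35.5 CPM in uninjured muscle at ZT16 (−2.56 ± 0.41), while at ZT4 its change was 0.17 ± 0.44 and was not called (difference −2.73 ± 0.60, adjusted p = 0.00856).

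Usp2, a deubiquitinase gene driven by the clock, changed by −3.57 ± 0.48 at ZT16 and by −0.85 ± 0.47 at ZT4, where it was not called. Its difference of −2.72 ± 0.67 lost its call without uninjured ZT16 replicate 3 or uninjured ZT4 replicate 2 (adjusted p from 0.0518 to 0.0631). Dbp, another D-box activator, changed by −2.59 ± 0.21 at ZT16 and −1.58 ± 0.20 at ZT4. Its difference of −1.01 ± 0.29 was lost without any 1 of the 14 libraries other than day 1 ZT16 replicate 3, uninjured ZT16 replicate 3, day 1 ZT4 replicate 2, or uninjured ZT4 replicate 2 or 3 (adjusted p from 0.0582 to 0.0851). Nr1d2, which encodes REV-ERB beta, changed by −1.64 ± 0.15 at ZT16 and −0.75 ± 0.15 at ZT4 (difference −0.89 ± 0.21, adjusted p = 0.0119). Nr1d1, which encodes REV-ERB alpha, was lower at both times (−1.63 ± 0.17 at ZT16 and −2.08 ± 0.17 at ZT4), and the difference was not called (0.45 ± 0.24, adjusted p = 0.281). Without uninjured ZT4 replicate 3 the difference of Usp2 was −3.55.

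Among the activators of the clock, Arntl depended on the baseline. It encodes BMAL1 (chromosome 7, 113207465 to 113314126), and had 11.4, 10.2, 7.36 and 7.89 CPM in day 1 libraries and 6.59, 5.28 and 13.8 CPM in uninjured libraries at ZT16, ranges that overlapped (0.10 ± 0.32, adjusted p = 0.794). At ZT4 it had 8.73, 5.9965, 8.71 and 9.79 CPM at day 1 and 49.6, 24.6 and 32.0 CPM in uninjured muscle, without overlap (−2.09 ± 0.31), and the difference was called (2.19 ± 0.45, adjusted p = 0.00515). Of the 5 activators and ROR receptors, 3 fell at ZT16, among them Npas2 (−2.04 ± 0.56) and Rora (−2.18 ± 0.24), and none rose. Npas2 encodes a partner of BMAL1, and Rora encodes a receptor that activates Arntl. Both fell at ZT4 as well, and neither had a called difference between the times. Clock itself was not called at either time (0.28 ± 0.23 at ZT16). Nfil3, a repressor at D-boxes, had 130, 56.1, 112 and 25.2 CPM in day 1 libraries and 132, 23.4 and 131 CPM in uninjured libraries at ZT16. Uninjured replicate 2 was the lowest of the 7, and the change at ZT16 was not called (−0.25 ± 0.51), whereas Nfil3 rose by 3.004 ± 0.59 at ZT4 (difference −3.25 ± 0.76, adjusted p = 0.0172, and 0.0504 without uninjured ZT16 replicate 1). With uninjured replicate 2 alone as the baseline Nfil3 was higher at day 1 (1.92, adjusted p = 0.0372).

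**Figure D2:**
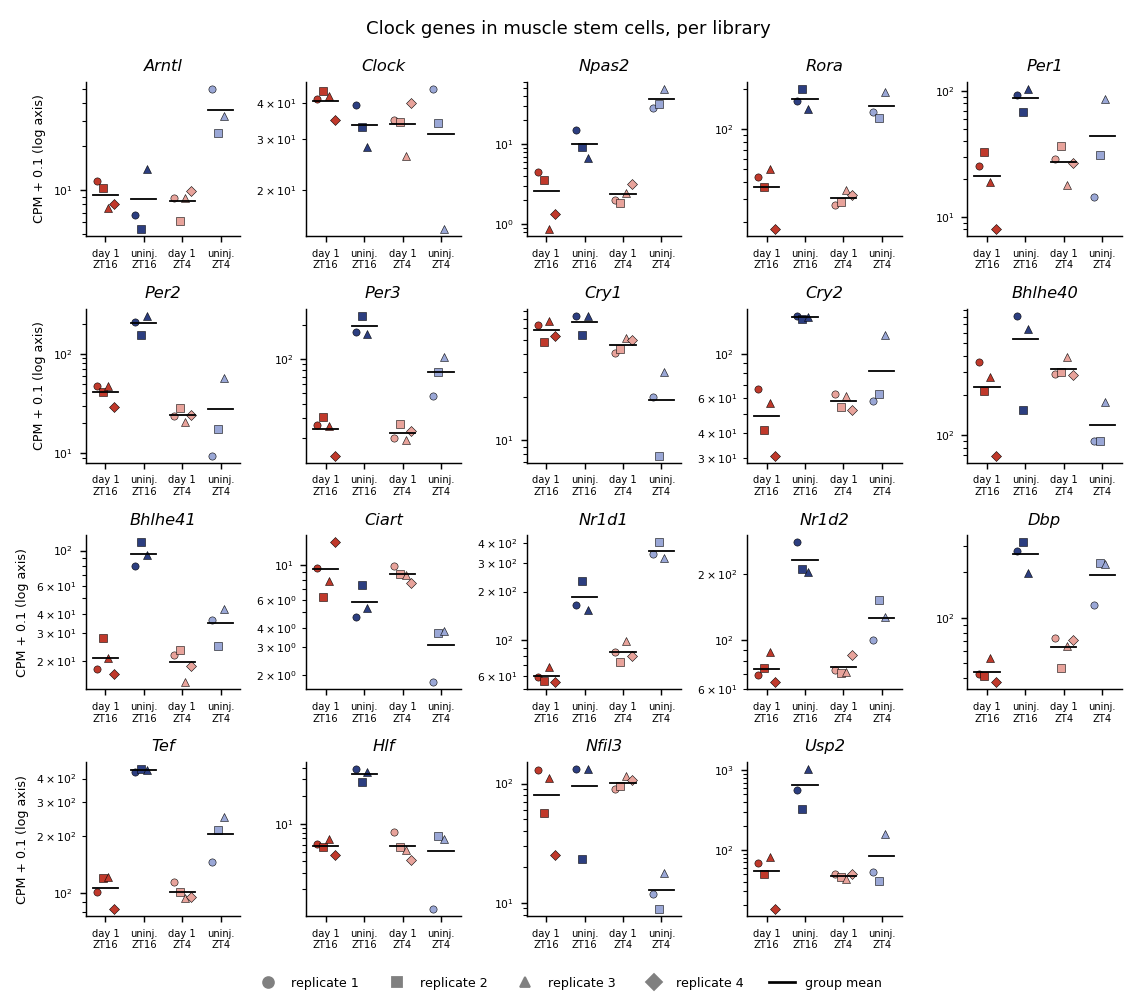
CPM plus 0.1 on a log axis for 19 clock genes in every library of the 4 groups, with symbols for replicates and a bar for the group mean. In the panels of Per2, Per3, Cry2, Bhlhe41, Nr1d2, Tef, Hlf and Usp2 the 3 uninjured ZT16 libraries sit above every other library shown.

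Against the uninjured ZT4 libraries instead, the same day 1 ZT16 libraries had 63.5% of all genes called (30.1% higher and 33.4% lower), and of the 8 repressors 2 were higher and 3 lower, with a median of −0.07. Of the 7 output genes 1 was higher and 4 were lower in that pairing (median −0.77). The pairing shares its day 1 libraries with the comparison at ZT16, and the values are given side by side.

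All 13 clock genes named here as called at ZT16 kept their call without any 1 library. With uninjured replicate 2 alone as the ZT16 baseline, 26.4% of all genes were higher and 21.5% lower at day 1, and 4 of the 8 repressors and 6 of the 7 output genes were still lower, with medians of −1.51 and −1.94. Of the differences between the times, none of the 10 in these 2 lists was called in that setting, with medians of −1.18 and −1.20. With only the 14 libraries of the 2 comparisons in the fit, the difference was called in 1 of the 8 repressors and 3 of the 7 output genes, and with no filter on low counts in 7 of the 8 repressors.

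Promoter windows were read for the clock genes to show the elements these lists are named for. RefSeq (GRCm38.p6) gave windows for 6 of the 8 repressor genes and all 7 output genes. The E-box, CACGTG, to which BMAL1 and CLOCK bind, was found in 4 of the 6 repressor genes and 1 of the 7 output genes, against 8.09% of 27025 genes in the table. A D-box, TTATGTAA or TTACGTAA on either strand, was found in 1 of the 6 and in none of the 7, against 1.23% of genes. The 3 sequences shown belong to genes with a called difference between the times, 5′ to 3′ on the strand of the gene and ending at the base before the annotated start, with the E-box (Bhlhe41, Tef) or D-box (Per3) in capitals. They lie at chr6:145865421-145865670 on the minus strand, chr15:81811164-81811413 on the plus strand and chr4:151044666-151044915 on the minus strand.
Bhlhe41: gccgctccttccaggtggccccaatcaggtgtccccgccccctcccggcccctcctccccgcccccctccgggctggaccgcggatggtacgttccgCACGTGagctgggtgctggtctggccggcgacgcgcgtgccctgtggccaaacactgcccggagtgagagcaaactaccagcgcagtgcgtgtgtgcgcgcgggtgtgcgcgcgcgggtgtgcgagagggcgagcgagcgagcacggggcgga
Tef: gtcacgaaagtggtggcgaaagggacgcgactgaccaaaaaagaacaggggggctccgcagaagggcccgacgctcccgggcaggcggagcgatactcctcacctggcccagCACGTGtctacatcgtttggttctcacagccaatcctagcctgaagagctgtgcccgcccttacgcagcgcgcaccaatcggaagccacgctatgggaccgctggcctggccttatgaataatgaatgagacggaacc
Per3: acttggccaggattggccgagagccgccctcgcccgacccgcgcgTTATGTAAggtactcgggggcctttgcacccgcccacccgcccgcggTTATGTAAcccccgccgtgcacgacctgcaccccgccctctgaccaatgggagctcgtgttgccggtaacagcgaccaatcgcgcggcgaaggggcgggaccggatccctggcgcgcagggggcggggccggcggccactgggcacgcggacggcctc
The Bhlhe41 and Tef windows hold 1 E-box each, and the Per3 window holds its D-box in 2 copies. A match describes letters in these windows and was not tied to the changes. The E-box was also in 4 of 10 early response feedback regulators with a window and in 3 of 15 sterol synthesis enzymes.

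Sterol synthesis genes rose at day 1 against the ZT16 baseline. Of 20 enzymes, 18 rose and 2 fell, with a median log2 change of 1.81. At ZT4, 9 rose, 2 fell and 9 were not called (30.1% of all genes were higher there), with a median of 0.55. The difference between the times was called in 14 of the 20, all more positive at ZT16, and 11 of the 14 held without any 1 library. The mean log2(CPM + 1) of the 20 genes was 6.42, 6.62, 5.95 and 6.12 in the day 1 libraries and 4.65, 4.45 and 4.54 in the uninjured libraries at ZT16. It was 6.37, 6.27, 5.96 and 6.08 at day 1 and 5.97, 5.25 and 5.91 in uninjured muscle at ZT4, so the 3 uninjured ZT16 libraries lay below every library of the other groups. Against the uninjured ZT4 libraries, the same day 1 ZT16 libraries had 11 of the 20 higher and 2 lower (median 0.75). The difference was called in 8 of the 20 with limma voom and in 8 with uninjured ZT16 replicate 2 alone. Of the 2 that fell at ZT16, 1 was called with only the 7 ZT16 libraries in the fit or without uninjured replicate 2.

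Fdps, the farnesyl diphosphate synthase gene (chromosome 3, 89093588 to 89101959), had 343, 329, 227 and 275 CPM in day 1 libraries and 28.8, 22.9 and 26.8 CPM in uninjured libraries at ZT16. Every day 1 library was far above every uninjured one (3.49 ± 0.23, adjusted p = 4.47e-11). At ZT4 it had 309.7, 279.6, 253 and 232 CPM at day 1 and 190.4, 80.2 and 172 CPM in uninjured muscle (0.86 ± 0.20), and the difference was 2.62 ± 0.29 (adjusted p = 4.72e-05). Sqle, squalene epoxidase, had 243, 248, 139 and 173 CPM at day 1 and 24.2, 13.996 and 30.5 CPM in uninjured muscle at ZT16 (3.13 ± 0.30), against a change of 0.48 ± 0.26 at ZT4 that was not called (difference 2.65 ± 0.38, adjusted p = 0.000612). Msmo1, methylsterol monooxygenase, changed by 3.44 ± 0.31 at ZT16 and 0.55 ± 0.26 at ZT4, where it was not called (difference 2.89 ± 0.39, adjusted p = 0.000339).

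The difference between the times was called at some steps of the pathway and not at others. Idi1 (3.41 ± 0.31), which makes an isoprene unit, Lss (2.93 ± 0.22), which closes the sterol rings, Cyp51 (2.83 ± 0.28), a sterol demethylase, and Sc5d (2.11 ± 0.23), a sterol desaturase, rose at both times and more at ZT16 (differences 2.26 ± 0.39, 1.98 ± 0.28, 1.80 ± 0.36 and 1.34 ± 0.30). Mvk (1.78 ± 0.23), mevalonate kinase, Fdft1 (1.93 ± 0.22), squalene synthase, Nsdhl (1.79 ± 0.20) and Dhcr7 (1.09 ± 0.25), both sterol dehydrogenase or reductase genes, rose at ZT16 and were not called at ZT4 (0.07, −0.06, 0.27 and −0.42). Each of these 4 differences was called. Acat2, a thiolase at the entry to the pathway, rose by 1.55 ± 0.16 at ZT16 and 1.07 ± 0.16 at ZT4 (difference not called, adjusted p = 0.189). Hmgcs1, an early synthase of the pathway, rose at ZT16 (1.78 ± 0.34), and its difference was not called (1.23 ± 0.45, adjusted p = 0.114).

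Of the 2 enzymes that fell at ZT16, Tm7sf2, a sterol reductase, changed by −1.36 ± 0.38 at ZT16 and −1.54 ± 0.39 at ZT4. Pmvk, phosphomevalonate kinase, had the smallest rise of the 18 (0.47 ± 0.19, adjusted p = 0.0311) and lost its call without day 1 ZT16 replicate 1, 2 or 4 or uninjured ZT16 replicate 3 (adjusted p from 0.052 to 0.165). Mvd, Ebp and Hsd17b7 also rose (2.03 ± 0.24, 0.82 ± 0.15 and 1.54 ± 0.24), and were the 3 enzymes whose called difference was lost when single libraries were left out. That of Mvd was lost without any 1 of the 14 libraries other than day 1 ZT16 replicate 3 or 4, uninjured ZT16 replicate 1, day 1 ZT4 replicate 1, or uninjured ZT4 replicate 3 (adjusted p from 0.05 to 0.0848), that of Ebp without day 1 ZT16 replicate 3 or 4, uninjured ZT16 replicate 1, day 1 ZT4 replicate 1 or 2, or uninjured ZT4 replicate 3 (adjusted p from 0.0566 to 0.113), and that of Hsd17b7 without uninjured ZT4 replicate 3 (adjusted p = 0.0518).

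Genes of sterol uptake and control moved in both directions. Of 15, 6 rose and 8 fell. Npc2, a sterol carrier of the lysosome, was not called with all libraries (−0.27 ± 0.13), but was called lower without uninjured ZT16 replicate 1 or 3 (adjusted p from 0.0361 to 0.0497). Srebf2, which encodes SREBP2, had 313, 313, 239.6 and 267 CPM at day 1 and 121, 114 and 143 CPM in uninjured muscle at ZT16 (1.17 ± 0.11), against −0.01 ± 0.11 at ZT4 (difference 1.18 ± 0.16, adjusted p = 0.00014). Insig1, which retains SREBP in the endoplasmic reticulum, and Stard4, a sterol carrier, rose at ZT16 (1.295 ± 0.21 and 2.64 ± 0.30) and were not called at ZT4 (−0.39 and 0.54), with differences that were called (1.685 and 2.10). Scap, the SREBP escort, rose by 0.53 ± 0.13.

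Export genes of the liver X receptor pathway were lower at day 1. Abca1, a sterol exporter, had 19.4, 13.0, 21.7 and 7.34 CPM in day 1 libraries and 183, 129 and 150.4 CPM in uninjured libraries at ZT16 (−3.32 ± 0.37). At ZT4 it had 8.87, 7.42, 10.1 and 7.03 CPM at day 1 and 19.6, 29.2 and 38.6 CPM in uninjured muscle (−1.80 ± 0.38), and the difference was not called (−1.53 ± 0.53, adjusted p = 0.0892). Abcg1, a second exporter, fell at ZT16 (−2.26 ± 0.43) and was not called at ZT4 (0.30 ± 0.48), with a difference of −2.56 ± 0.65 (adjusted p = 0.0174). Mylip, a ubiquitin ligase gene (−2.39 ± 0.29), Nr1h3 (−1.85 ± 0.43) and Nr1h2 (−0.78 ± 0.11), the liver X receptors, Npc1 (−1.32 ± 0.15), Insig2 (−2.34 ± 0.15) and Srebf1 (−0.82 ± 0.15) were also lower at day 1, and none of those 6 had a called difference between the times. Without uninjured ZT4 replicate 3 the difference of Abcg1 was −3.16.

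**Figure D3:**
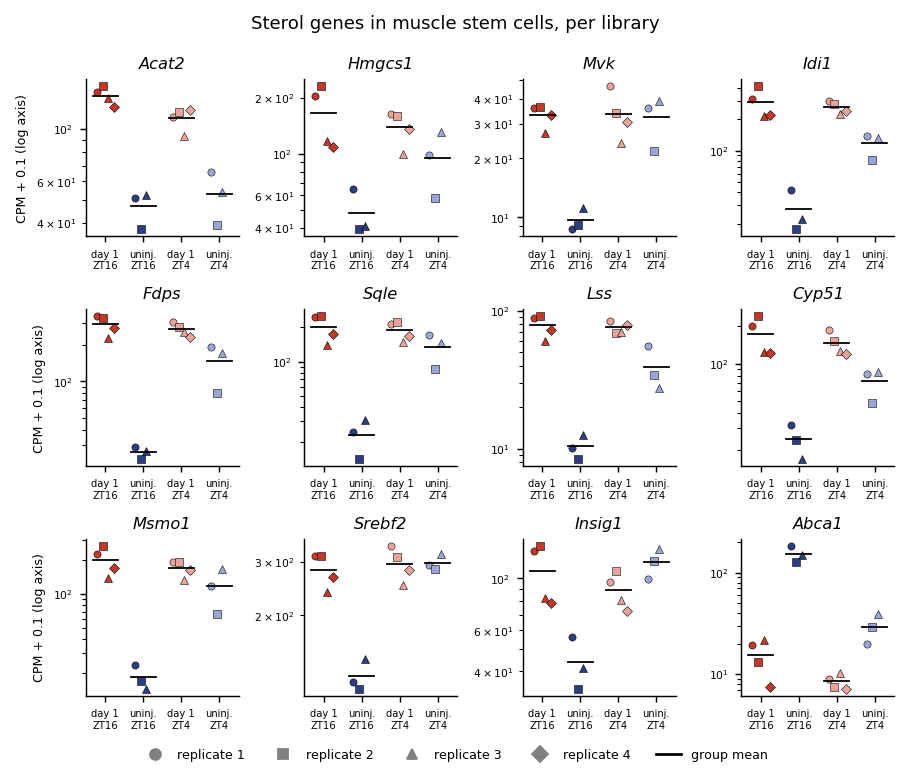
CPM plus 0.1 on a log axis for 12 sterol genes in every library of the 4 groups, with symbols for replicates and a bar for the group mean. For Mvk, Idi1, Fdps, Sqle, Lss, Cyp51, Msmo1, Srebf2 and Insig1 the uninjured ZT16 libraries lie below the other groups, while for Abca1 they lie above them.

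The sterol promoters were read for the elements bound by SREBP2 and its partner NF-Y. Windows were found for 15 of the 20 enzymes. The sterol regulatory element, searched as TCACNCCAC on both strands, was in 1 of the 15 against 1.44% of genes in the table, and CCAAT, the NF-Y element, in 14 of the 15 against 41.1%. The 2 sequences show the enzyme with the sterol element and an enzyme with a called difference between the times, at chr13:119690101-119690350 and chr13:8885356-8885605, both on the plus strand and ending at the base before the start. Capitals mark the sterol element in Hmgcs1 and CCAAT in Idi1, where it reads ATTGG on the strand shown.
Hmgcs1: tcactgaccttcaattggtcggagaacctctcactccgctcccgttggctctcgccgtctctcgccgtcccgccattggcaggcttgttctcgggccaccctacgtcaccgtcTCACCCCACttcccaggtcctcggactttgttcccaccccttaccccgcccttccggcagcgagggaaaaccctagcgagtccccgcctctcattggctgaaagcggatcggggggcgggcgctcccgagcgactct
Idi1: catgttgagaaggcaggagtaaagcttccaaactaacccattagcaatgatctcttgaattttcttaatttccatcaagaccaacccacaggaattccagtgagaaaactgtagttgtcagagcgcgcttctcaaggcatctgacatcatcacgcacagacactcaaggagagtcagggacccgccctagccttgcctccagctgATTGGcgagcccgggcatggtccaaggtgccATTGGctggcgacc
CCAAT is short and common, and its presence here is a description of the windows. It was also in 6 of the 6 clock repressor genes with a window and in 6 of 10 genes of sterol uptake and control, so it was not particular to the enzymes.

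The early response genes gave a result that depended on single libraries of the baseline. Of 19 early response transcription factors, 10 fell, 1 rose and 8 were not called at ZT16 (median −1.67), whereas at ZT4 15 rose and none fell (median 3.26). Of 12 feedback regulators, 5 fell, 2 rose and 5 were not called at ZT16 (median −0.98), against 8 higher and none lower at ZT4 (median 2.74). The difference between the times was called in 16 of the 19 and 8 of the 12, all more negative at ZT16. Without any 1 library, 6 of the 11 and 5 of the 7 calls at ZT16 held, and 10 of the 16 and 4 of the 8 differences. The mean log2(CPM + 1) of the 19 factors was 7.60, 7.13, 7.14 and 5.55 in day 1 replicates 1 to 4 and 8.84, 4.73 and 8.47 in uninjured replicates 1 to 3 at ZT16. Uninjured replicates 1 and 3 were above all day 1 libraries, and uninjured replicate 2 was below all of them. At ZT4 the same mean was 7.65, 7.46, 7.43 and 7.43 at day 1 and 4.18, 4.497 and 4.17 in uninjured muscle. These counts also depended on the fit. With only the 7 ZT16 libraries in the fit, 1 of the 19 factors and 1 of the 12 feedback regulators were called lower. With limma voom 5 of the 19 were lower, and with a replicate block 7 of the 19 and 3 of the 12 were. With only the 14 libraries in the fit, the difference between the times was called in 4 of the 19 and 2 of the 12, and with limma voom in 3 and 1.

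Fos, a subunit of the factor AP-1 (chromosome 12, 85473890 to 85477273), had 3829.6, 3324, 3535 and 452 CPM in day 1 replicates 1 to 4 and 19968, 469.6 and 16117 CPM in uninjured replicates 1 to 3 at ZT16. Day 1 replicate 4 was lower than uninjured replicate 2, and the groups overlapped. At ZT4 Fos had 3692, 3461, 4367 and 3118 CPM at day 1 and 319.8, 539.9 and 196 CPM in uninjured muscle. The change was −2.13 ± 0.80 at ZT16 (adjusted p = 0.0284) and 3.38 ± 0.91 at ZT4 (adjusted p = 0.00392). The ZT16 call was lost without day 1 ZT16 replicate 4 or uninjured ZT16 replicate 1 or 3 (adjusted p from 0.0601 to 0.138). With uninjured replicate 2 alone as the baseline the change was 2.71 (adjusted p = 0.0343). Without uninjured replicate 1 it was −1.54.

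Other early factors had the same split among the uninjured libraries. Egr1, a zinc finger factor, had 3257, 2683, 2913 and 615 CPM in day 1 libraries and 18381, 539 and 14943 CPM in uninjured libraries at ZT16 (−2.25 ± 0.74, and 2.28 with uninjured replicate 2 alone), and lost its call without uninjured replicate 1 (adjusted p = 0.0807). Jun and Junb, partners of Fos in AP-1, were lower with all libraries (−2.14 ± 0.62 and −2.21 ± 0.66) and were not called with uninjured replicate 2 alone (1.16 and 1.32). Atf3, a stress-induced factor, had 283, 149.6, 133 and 27.0 CPM at day 1 and 385, 1.43 and 344 CPM in uninjured muscle at ZT16 (−0.72 ± 0.89, not called), against a rise of 7.70 ± 1.504 at ZT4. Nr4a1, an orphan nuclear receptor (−2.45 ± 0.95), Fosb (−2.50 ± 0.92), Fosl2 (−1.32 ± 0.47) and Zfp36, which destabilises cytokine RNAs (−1.79 ± 0.73), were called lower at ZT16. Fosb lost that call without day 1 ZT16 replicate 4 or uninjured ZT16 replicate 1 or 3 (adjusted p from 0.0531 to 0.139) and Fosl2 without day 1 ZT16 replicate 4 or uninjured ZT16 replicate 1 or 3 (adjusted p from 0.0581 to 0.2). Nr4a1 lost it without any 1 of the 7 libraries other than day 1 ZT16 replicate 1 or uninjured ZT16 replicate 2 (adjusted p from 0.0538 to 0.14) and Zfp36 without any 1 of the 7 libraries other than day 1 ZT16 replicate 1 or uninjured ZT16 replicate 2 (adjusted p from 0.052 to 0.211). Gadd45a, a stress sensor, fell by 0.95 ± 0.37 and lost its call without any 1 of the 7 libraries other than day 1 ZT16 replicate 1 or uninjured ZT16 replicate 2 (adjusted p from 0.0503 to 0.159). Without uninjured replicate 1 the ZT16 changes of Fosb, Nr4a1 and Zfp36 were −1.74, −1.81 and −1.18.

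Without uninjured replicate 2, the 2 remaining uninjured libraries gave lower values at day 1 for more of these genes. Egr2 (−1.93), Klf2 (−1.05), Nr4a3 (−2.34), Socs3 (−1.65) and Sik1 (−1.29) were called lower in addition, and Nr4a3 also without day 1 replicate 1 (−2.49). They encode 3 transcription factors, an inhibitor of cytokine signalling and a kinase. With uninjured replicate 2 alone, 11 of the 19 factors were higher at day 1 and none lower (median 2.28), and 6 of the 12 feedback regulators were higher and none lower (median 2.10). No difference between the times was called in either list in that setting (medians −0.81 and −0.75). What sets these libraries apart was not tested. Against the uninjured ZT4 libraries, the same day 1 ZT16 libraries had 13 of the 19 factors and 7 of the 12 feedback regulators higher and none lower (medians 2.65 and 2.69).

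A few early response genes were higher in all day 1 libraries than in any uninjured library at ZT16. Fosl1, the FRA-1 subunit of AP-1, had 269, 244, 262 and 306 CPM in day 1 libraries and 11.9, 1.71 and 3.26 CPM in uninjured libraries at ZT16, with no overlap. It rose at both times (5.58 ± 0.41 at ZT16 and 7.78 ± 0.49 at ZT4), with a difference of −2.20 ± 0.65 whose call was lost without any 1 of the 14 libraries other than uninjured ZT16 replicate 2 or 3 or uninjured ZT4 replicate 1 (adjusted p from 0.0628 to 0.257). Dusp2, a phosphatase of the MAP kinases, and Ier5, a heat shock cofactor, rose at ZT16 (2.23 ± 0.43 and 1.99 ± 0.46) with levels that did not overlap, and their differences were not called with all libraries (adjusted p = 0.132 and 0.183) but were called without uninjured ZT4 replicate 2 (0.0289 and 0.0298). Without uninjured ZT16 replicate 1 Fosl1 changed by 6.78 at ZT16, with a difference of −1.03, which was −2.82 without uninjured ZT4 replicate 1.

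**Figure D4:**
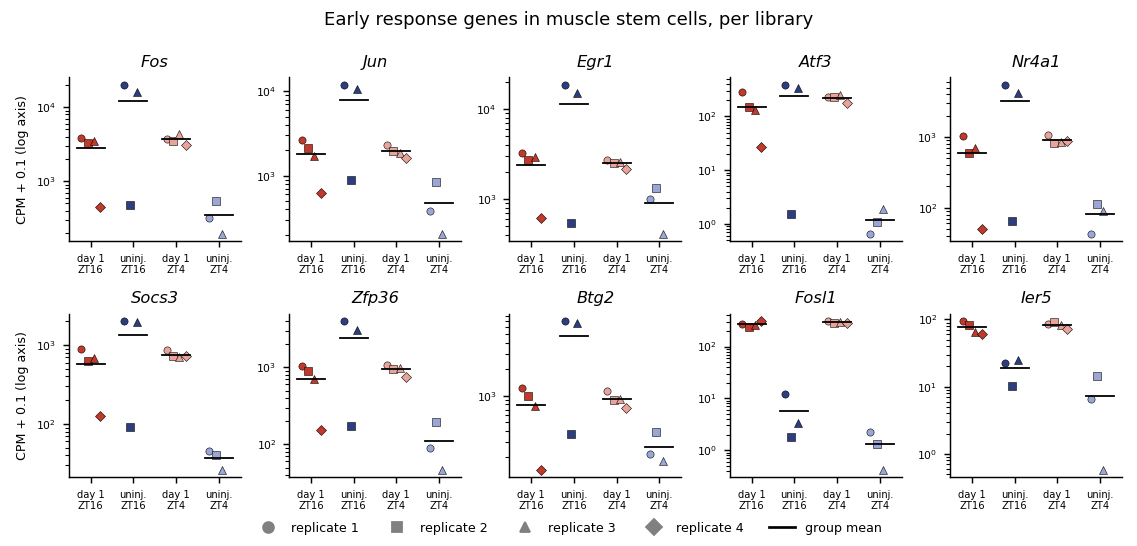
CPM plus 0.1 on a log axis for 10 early response genes in every library of the 4 groups, with symbols for replicates and a bar for the group mean. Uninjured ZT16 replicates 1 and 3 lie above day 1 and replicate 2 below day 1 replicates 1 to 3 for the first 8 genes, while Fosl1 and Ier5 are higher in all day 1 libraries.

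A serum response CArG box was read from the promoter of Egr2, whose change at ZT16 turned with the libraries used. The box was in 1 of 16 early factors with a window and 1 of 10 feedback regulators, against 1.81% of genes in the table. The window at chr10:67537619-67537868, on the plus strand and ending at the base before the start, carries the box in capitals.
Egr2: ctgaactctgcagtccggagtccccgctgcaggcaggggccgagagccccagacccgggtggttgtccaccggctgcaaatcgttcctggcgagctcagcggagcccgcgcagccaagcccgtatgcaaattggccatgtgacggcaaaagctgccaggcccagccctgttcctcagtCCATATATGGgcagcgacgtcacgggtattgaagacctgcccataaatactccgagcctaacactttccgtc

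Of the 10 genes with the smallest p for the difference between the times, Fdps and Srebf2 are described above. Dbi, an acyl-CoA binding protein gene, had 125, 123, 132 and 122 CPM in day 1 libraries and 52.3, 48.8 and 42.6 CPM in uninjured libraries at ZT16, and 146, 153, 136 and 126 CPM at day 1 and 170.2, 134 and 141 CPM in uninjured muscle at ZT4. The uninjured ZT16 libraries stood below the other 3 groups, and the difference was 1.47 ± 0.15 (adjusted p = 7.94e-06). Tmem97, a sigma-2 receptor linked to sterol transport, and Hsd17b12, a fatty acid elongation enzyme, rose at both times and more at ZT16 (differences 1.57 ± 0.19 and 1.25 ± 0.16). Anxa2, a membrane-binding annexin, did likewise (1.45 ± 0.09 at ZT16, 0.58 ± 0.08 at ZT4).

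Trip10, a CDC42 effector, went in the opposite direction. It had 135, 119, 149.8 and 135 CPM at day 1 and 354, 340.5 and 363 CPM in uninjured muscle at ZT16, and 112, 118, 125 and 130.3 CPM at day 1 and 109, 121 and 122 CPM in uninjured muscle at ZT4. It fell at ZT16 (−1.39 ± 0.11) and was not called at ZT4 (0.05 ± 0.12). Iqsec3, an exchange factor of ARF proteins, rose at ZT16 (1.58 ± 0.17) with −0.29 ± 0.15 at ZT4. Slc19a2, a thiamine transporter, had 56.4, 47.2, 50.7 and 37.7 CPM at day 1 and 42.7, 47.0 and 37.5 CPM in uninjured muscle at ZT16, which overlapped (0.18 ± 0.17, adjusted p = 0.363), but rose by 2.20 ± 0.19 at ZT4. Each of the differences named here held without any 1 of the 14 libraries, which their choice by smallest p made likely.

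Glucocorticoid-linked genes were lower at day 1 at ZT16. Of 14, 9 fell and 3 rose (median −1.96, against −0.97 at ZT4), and 4 differences between the times were called, all more negative at ZT16. Klf15, a metabolic regulator, had 21.8, 17.1, 17.4 and 6.78 CPM at day 1 and 209, 257 and 229 CPM in uninjured muscle (−3.87 ± 0.35). Ddit4, an inhibitor of mTORC1, had 3.34, 5.66, 4.70 and 2.35 CPM at day 1 and 40.7, 84.7 and 106 CPM in uninjured muscle (−4.25 ± 0.36). Nr3c1, the receptor itself (−1.69 ± 0.16), and the atrophy regulator Foxo3 (−2.37 ± 0.30) fell. None of these 4 differences was called with all libraries (adjusted p = 0.253, 0.069, 0.428 and 0.0719). That of Klf15 was called without uninjured ZT4 replicate 3 (adjusted p = 0.0099), that of Ddit4 without uninjured ZT16 replicate 1 or uninjured ZT4 replicate 3 (adjusted p from 0.0218 to 0.0341) and that of Foxo3 without day 1 ZT16 replicate 3 or uninjured ZT4 replicate 3 (adjusted p from 0.0311 to 0.0338). Metallothionein Mt1 had 944, 878, 986 and 524 CPM at day 1 and 598, 114 and 509 CPM in uninjured muscle at ZT16, with uninjured replicate 2 the lowest, and its rise of 1.03 ± 0.39 lost its call without day 1 ZT16 replicate 1 or 3 (adjusted p from 0.0539 to 0.0625). At ZT4 it rose by 3.45 ± 0.44, and the difference was called (−2.42 ± 0.55, adjusted p = 0.0147). With only the 7 ZT16 libraries in the fit none of the 3 rises was called, and 8 of the 14 were lower.

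Pax7, Myod1, Myf5 and Myog changed at both times. Pax7, the marker of muscle stem cells (chromosome 4, 139737062 to 139833528), had 78.4, 69.2, 58.0 and 42.2 CPM in day 1 libraries and 303, 348 and 290.4 CPM in uninjured libraries at ZT16. The ranges were far apart, with −2.34 ± 0.15 at ZT16 and −2.60 ± 0.15 at ZT4 (difference 0.26 ± 0.21, adjusted p = 0.517). Myod1, which commits cells to the muscle lineage, had 1309, 1228, 1366 and 1420.4 CPM at day 1 and 235, 201 and 301 CPM in uninjured muscle (2.44 ± 0.13). Myf5, a related factor, fell by 1.81 ± 0.24. Myog, which drives differentiation, had 12.1, 26.1, 9.90 and 7.75 CPM at day 1 and 372, 219.5 and 172 CPM in uninjured muscle (−4.18 ± 0.52), and Mef2d, a partner of these factors, fell by 0.81 ± 0.11. In the list of 13 Pax and myogenic factors, 8 fell and 1, Myod1, rose, and no difference between the times was called. With uninjured replicate 2 alone, 5 of them were lower. Without day 1 replicate 4 or uninjured replicate 1, 2 of the 13 were called higher.

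Of 20 quiescence genes, 17 fell and 1 rose (median −2.21, against −1.93 at ZT4). The difference between the times was called in 2 of the 20, both more negative at ZT16. The list summed to 18100, 8863 and 18690 CPM in uninjured replicates 1 to 3 at ZT16, with replicate 2 the lowest, and to 3000 to 5243 CPM at day 1. In uninjured muscle at ZT4 it summed to 7466 to 8621 CPM. Calcr, the calcitonin receptor that holds the quiescent state, had 33.2, 22.4, 24.5 and 7.89 CPM at day 1 and 312, 223 and 247 CPM in uninjured muscle (−3.57 ± 0.31). Gas1, a growth arrest gene (−4.37 ± 0.31), Chrdl2, a BMP antagonist (−3.86 ± 0.27), and the transcription factor Foxo1 (−2.18 ± 0.17) fell too. Sdc3, a syndecan of stem cells, was the member that rose (0.87 ± 0.13). Of 15 Notch genes, 11 fell and 1 rose, with the targets Hes1 (−2.79 ± 0.21) and Hey1 (−2.42 ± 0.16) and the receptor Notch3 (−2.43 ± 0.20) lower and the ligand Jag2 higher (2.28 ± 0.40). With uninjured replicate 2 alone, 7 of the Notch genes were lower and 3 higher. Jag2 changed by 2.96 without uninjured replicate 1, where 2 Notch genes were called higher.

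Growth and division genes rose as a block. All 35 replication genes, all 24 mitosis genes and all 25 nucleolar ribosome biogenesis factors rose, with medians of 2.84, 3.31 and 1.44. At ZT4 the medians were 2.70, 2.38 and 1.45. Mcm3, a subunit of the replicative helicase, had 562, 489, 616 and 613 CPM at day 1 and 53.2, 40.3 and 49.8 CPM in uninjured muscle (3.58 ± 0.17). Cdk1, the mitotic kinase, had 165, 188, 265 and 272 CPM at day 1 and 19.8, 6.86 and 8.23 CPM in uninjured muscle (4.26 ± 0.35), and Ncl, nucleolin, rose by 2.40 ± 0.10. Of 22 cyclin, CDK, E2F and Rb family genes, 14 rose and 5 fell, with the G1 kinase gene Cdk6 (3.86 ± 0.23), cyclin E1, Ccne1 (3.88 ± 0.27), and E2f8 (4.38 ± 0.30) higher and the Rb relative Rbl2 lower (−2.10 ± 0.16). The fall of Rbl2 was larger at ZT16 (difference −0.82 ± 0.23), a call lost without uninjured ZT16 replicate 1 or 3, day 1 ZT4 replicate 3, or uninjured ZT4 replicate 2 (adjusted p from 0.0541 to 0.0746). In the Myc network, 7 of 11 fell, among them the antagonists Mxd4 (−2.68 ± 0.16) and Mxi1 (−1.65 ± 0.16), and Mxd3 was the 1 that rose (2.22 ± 0.38). Cdk1 changed by 4.91 without uninjured replicate 1. In the Myc network 4 were lower and 2 higher with uninjured replicate 2 alone, and 3 of the cyclin, CDK, E2F and Rb family genes were lower.

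**Figure D5:**
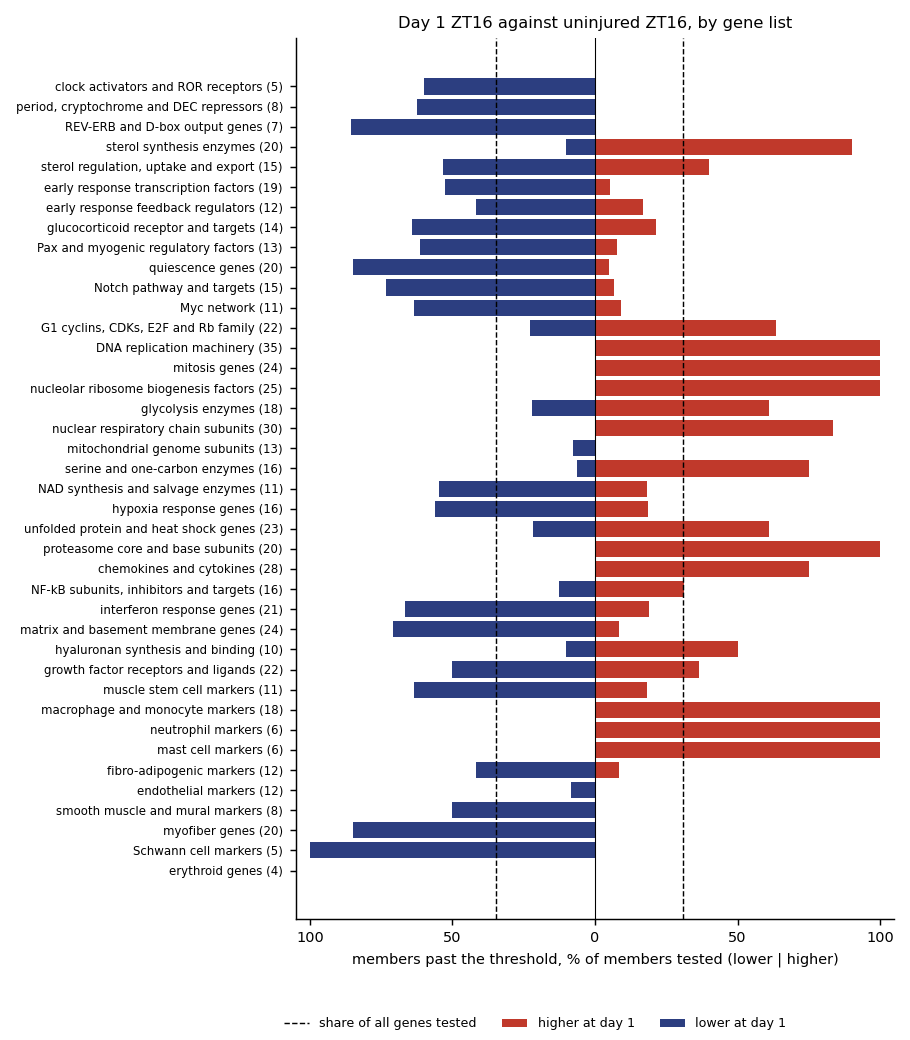
Percent of tested members past the threshold in day 1 against uninjured muscle at ZT16 for 40 gene lists (number tested in brackets), with members higher at day 1 to the right and lower to the left. Dashed lines mark the shares of all genes tested, 30.8% higher and 34.6% lower.

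Genes of energy metabolism were mostly higher at day 1. Of 30 nuclear subunits of the respiratory chain, 25 rose and none fell at ZT16 (median 0.65), whereas 13 rose and 5 fell at ZT4 (median 0.17). The difference was called in 9 of the 30, all more positive at ZT16. Cox5a, a subunit of cytochrome c oxidase, had 252, 259, 276 and 338 CPM at day 1 and 96.1, 103 and 84.7 CPM in uninjured muscle at ZT16 (1.57 ± 0.11, with 1.38 ± 0.11 at ZT4), and its difference was not called. Atp5b, of the ATP synthase, rose by 1.19 ± 0.09. Of the 13 subunits encoded by mitochondrial DNA, 12 were not called at ZT16 and mt-Cytb fell (−0.54 ± 0.16). That call was lost without uninjured ZT16 replicate 2 (−0.32, adjusted p = 0.143), a setting in which 1 of the 13 was higher. At ZT4, 8 of the 13 were lower and none higher (median −1.11, against −0.20 at ZT16), where 34.2% of all genes were lower. The uninjured ZT4 libraries were split, with sums of 12940, 22580 and 27320 CPM in replicates 1 to 3 against 9347 to 12360 CPM at day 1. No difference between the times was called among the 13. Of 18 glycolysis enzymes, 11 rose and 4 fell, with enolase, Eno1, at 2.44 ± 0.10 at ZT16 and 1.85 ± 0.09 at ZT4 (difference 0.59 ± 0.12, adjusted p = 0.00574) and lactate dehydrogenase A, Ldha, at 1.96 ± 0.13, while Ldhb (−1.24 ± 0.15) and Pfkm (−1.40 ± 0.20) fell. Slc2a3, a glucose transporter, had 30.3, 33.1, 29.8 and 23.8 CPM at day 1 and 65.5, 25.7 and 43.4 CPM in uninjured muscle at ZT16, with uninjured replicate 2 inside the day 1 range (−0.62 ± 0.24). That call was lost without day 1 ZT16 replicate 4 or uninjured ZT16 replicate 1 (adjusted p from 0.0744 to 0.464), and Slc2a3 rose by 1.33 ± 0.26 at ZT4. Of the mitochondrial genes, 3 were lower without uninjured replicate 3 and 2 without day 1 replicate 2.

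Serine and one-carbon enzymes rose in 12 of 16 and fell in 1, with Phgdh, the first enzyme of serine synthesis, at 326, 330.3, 423 and 454 CPM at day 1 and 48.3, 32.4 and 53.1 CPM in uninjured muscle (3.10 ± 0.17). Among 11 genes of NAD synthesis and salvage, 2 rose and 6 fell. Nampt, which limits the rate of NAD salvage, had 51.9, 57.5, 64.7 and 57.3 CPM at day 1 and 33.7, 37.8 and 34.2 CPM in uninjured muscle at ZT16 (0.72 ± 0.14), and 53.2, 61.5, 50.8 and 61.2 CPM at day 1 and 23.3, 22.3 and 15.4 CPM in uninjured muscle at ZT4 (1.47 ± 0.15). Its rise was smaller at ZT16 (difference −0.76 ± 0.20, adjusted p = 0.0231), a call lost without uninjured ZT4 replicate 3 (adjusted p = 0.0567). Nnmt, which methylates nicotinamide, had 8.04, 4.89, 4.32 and 2.08 CPM at day 1 and 63.8, 4.71 and 47.5 CPM in uninjured muscle, with uninjured replicate 2 at the level of day 1 (−3.003 ± 0.52, and 0.17 with that replicate alone). Of 16 hypoxia genes, 3 rose and 9 fell, with Hif1a higher (1.303 ± 0.14) and the targets Kdm3a (−1.55 ± 0.17) and P4ha2 (−1.55 ± 0.16) lower. Egln3, of the same list, was also called higher, at 2.03 to 2.60 when each of the 7 libraries was left out in turn. Without uninjured replicate 1 Nnmt changed by −2.41. Of the 11 NAD genes, 3 were lower with uninjured replicate 2 alone.

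All 20 proteasome subunits rose (median 1.17, against 0.98 at ZT4), with Psmc2 at 1.502 ± 0.10. Among 23 genes of the unfolded protein and heat shock responses, 14 rose and 5 fell. Their summed level was 21380.0 to 23210.0 CPM at day 1 and 16870.0, 8260.0 and 25570.0 CPM in uninjured replicates 1 to 3 at ZT16, so uninjured replicate 3 was above every day 1 library. Of the 23, 16 rose and 3 fell with uninjured replicate 2 alone, and 14 rose and 6 fell without it. The mitochondrial chaperonin Hspd1 (2.15 ± 0.12) and the secreted Manf (2.39 ± 0.13) were higher. Herpud1, of endoplasmic reticulum degradation (−2.17 ± 0.14), and Xbp1, a stress factor of that organelle (−0.93 ± 0.12), were lower. Dnajb9, a cochaperone, had 41.6, 55.6, 40.0 and 41.0 CPM at day 1 and 187, 99.5 and 124 CPM in uninjured muscle at ZT16 and fell by 1.62 ± 0.19, whereas at ZT4 it was not called (−0.29 ± 0.20; difference −1.33 ± 0.28, adjusted p = 0.00637). Ddit3, the stress factor CHOP, fell at ZT16 (−1.69 ± 0.26) and was not called at ZT4 (−0.07 ± 0.27; difference −1.62 ± 0.38, adjusted p = 0.0119), with uninjured replicate 2 again the lowest of its group at ZT16 (67.6, 29.7 and 75.2 CPM) and no call with that replicate alone (−0.60).

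Leukocyte transcripts were higher in the day 1 libraries than in uninjured muscle. All 18 macrophage and monocyte markers rose, and their summed level was 1602 to 3050.0 CPM at day 1 and 38.9 to 119 CPM in uninjured muscle. Tyrobp, an adaptor of myeloid receptors, had 86.5, 64.2, 48.2 and 56.6 CPM at day 1 and 0.716, 1.29 and 0.142 CPM in uninjured muscle (6.45 ± 0.53). All 6 tested of 8 neutrophil markers rose, with sums of 31.5 to 90.4 CPM at day 1 and 0 to 0.284 CPM in uninjured muscle, where 7 of the 8 had no counts. Their median of 8.59 depends on genes without counts and was 6.47 with those genes at a floor of 3 counts over the group. All 6 mast cell markers rose (median 2.84, and 2.70 with the 1 gene without counts at the floor), with Cpa3 at 2.78 ± 0.62, and 3 of them were called with uninjured replicate 2 alone. Of 10 lymphocyte markers, 9 had no counts in uninjured muscle, 4 had none at day 1, and the 1 tested was not called. Without uninjured replicate 2 Tyrobp changed by 7.28, without uninjured replicate 1 Cpa3 changed by 3.48, and without day 1 replicate 3 the lymphocyte list had 1 gene called lower.

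The highest log2 changes at day 1 were in genes with few or no counts in uninjured muscle. By a floor of 3 counts over the uninjured group, Il1rn, the interleukin 1 receptor antagonist, was at least 390.2-fold higher at day 1, with 95.3, 67.4, 33.5 and 26.4 CPM at day 1 and no counts in any of the 3 uninjured libraries. Ms4a7, a macrophage membrane gene, was at least 156-fold higher, Nckap1l, a haematopoietic actin regulator, at least 153-fold, Vav1, a haematopoietic exchange factor, at least 136-fold, and Ncf1, an oxidase subunit of phagocytes, at least 134-fold. Serpinb2, a protease inhibitor of monocytes and other cells, was at least 137-fold higher, with 17.9, 16.2, 21.3 and 22.6 CPM at day 1. Tlr13, Hcar2, Pik3r5, Mmp9 and Csf3r, also known from myeloid cells, were at least 116-, 111-, 108-, 104- and 97.8-fold higher. Chil3, a chitinase-like macrophage gene, had 132, 99.5, 78.6 and 75.3 CPM at day 1 and 2 counts in all in uninjured muscle.

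Chemokines and cytokines rose in 21 of 28 tested, none fell, and the median was 4.95 at ZT16 (4.55 with genes without counts at the floor) and 7.88 at ZT4. No floor was applied to the ZT4 median, so the 2 medians are not on equal terms. In uninjured muscle the list summed to 253.2 to 845.1 CPM at ZT16 and to only 151.8 to 206.1 CPM at ZT4. The rise was smaller at ZT16 in all 6 called differences. In day 1 ZT16 replicates 1 to 4 the chemokine and cytokine list summed to 3279, 2823, 2084 and 2085 CPM. The macrophage and monocyte list summed to 3050, 2223, 1694 and 1602 CPM there, and the neutrophil list to 68.57, 73.75, 31.48 and 90.42 CPM. In day 1 ZT4 replicates 1 to 4 the chemokine and cytokine list summed to 3577, 3709, 5058 and 3592 CPM. The macrophage and monocyte list summed to 2905, 3082, 4973 and 3015 CPM in those ZT4 libraries, and the neutrophil list to 180.3, 162.1, 321.1 and 87.53 CPM. The part of leukocytes in the chemokine result was not tested. Ccl2, the monocyte attractant (chromosome 11, 82035571 to 82037453), had 316, 269, 172 and 202 CPM at day 1 and 22.1, 3.57 and 7.95 CPM in uninjured muscle at ZT16 (4.42 ± 0.58). At ZT4 it had 346, 358, 515 and 334 CPM at day 1 and 1.02, 2.10 and 3.20 CPM in uninjured muscle (7.58 ± 0.72). The difference of −3.16 ± 0.87 (adjusted p = 0.0372) was lost without any 1 of the 14 libraries other than day 1 ZT16 replicate 1 or 2, uninjured ZT16 replicate 2, day 1 ZT4 replicate 1, or uninjured ZT4 replicate 3 (adjusted p from 0.05 to 0.179). Csf1, the macrophage growth factor, had 392.44, 400.0, 331 and 497 CPM at day 1 and 36.0, 34.4 and 24.4 CPM in uninjured muscle (3.68 ± 0.18 at ZT16, 4.64 ± 0.19 at ZT4), and its difference (−0.96 ± 0.23, adjusted p = 0.0146) was lost without uninjured ZT16 replicate 1 (adjusted p = 0.0541). Cxcl12, the stromal chemokine, rose by 1.39 ± 0.17. Without uninjured ZT16 replicate 1 Ccl2 changed by 5.40 at ZT16, with a difference of −2.20. Without day 1 ZT16 replicate 1 a chemokine or cytokine gene was called lower.

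NF-kB genes rose in 5 of 16 and fell in 2 at ZT16, against 12 and 1 at ZT4. The share that rose at ZT16 was near the 30.8% of all genes. Nfkb2, a subunit, rose by 1.08 ± 0.16. Tnfaip3, the inhibitor A20, had 128, 62.9, 95.1 and 19.9 CPM at day 1 and 530.0, 34.4 and 193 CPM in uninjured muscle at ZT16. It was called lower (−1.72 ± 0.62), a call that was lost without day 1 ZT16 replicate 2 or 4 or uninjured ZT16 replicate 1 (adjusted p from 0.0511 to 0.436), and its change was 1.29 with uninjured replicate 2 alone. Without uninjured replicate 1 it was −0.54. Of the 16, 8 rose and none fell with uninjured replicate 2 alone, and without uninjured replicate 1 or day 1 replicate 2 or 4 the number lower was 1. Of 21 interferon response genes, 14 fell and 4 rose (median −1.17, against −0.07 at ZT4). Ifit1, an antiviral effector, had 8.50, 3.73, 3.55 and 5.95 CPM at day 1 and 16.3, 41.8 and 29.1 CPM in uninjured muscle at ZT16 and fell (−2.43 ± 0.40), and was not called at ZT4 (0.32 ± 0.42; difference −2.74 ± 0.59, adjusted p = 0.00707). Stat2, of the interferon receptor pathway, fell by 1.57 ± 0.22, and Ifitm3 rose (0.66 ± 0.15).

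Matrix genes fell in 17 of 24 and rose in 2 (median −1.45). Col3a1 (−2.37 ± 0.19) and Col6a1 (−2.95 ± 0.24), collagens of the interstitium, and the basement membrane laminin Lama2 (−1.58 ± 0.16) were lower. Fibronectin, Fn1, had 278, 263, 186 and 182 CPM at day 1 and 37.4, 11.4 and 21.4 CPM in uninjured muscle (3.28 ± 0.31), and tenascin C, Tnc, had 576, 566, 606 and 623 CPM at day 1 and 29.1, 2.29 and 1.99 CPM in uninjured muscle (5.74 ± 0.70), the 2 members that rose. Fibro-adipogenic cells make matrix, and their markers summed to 568.5 to 1070.0 CPM at day 1 and 3242 to 3532 CPM in uninjured muscle. A sum follows its most abundant members. The mean log2(CPM + 1) of these markers was 2.53 to 2.94 at day 1 and 3.49 to 3.69 in uninjured muscle. Of the 12 tested, 5 fell and 6 were not called, where 34.6% of all genes were lower. Ly6a rose (1.59 ± 0.48), a call lost without day 1 replicate 4 (adjusted p = 0.0506). The part of these cells in the matrix result was not tested. Hyaluronan genes rose in 5 of 10, with the receptor Cd44 at 442, 497, 456 and 498 CPM at day 1 and 57.5, 50.1 and 41.4 CPM in uninjured muscle (3.25 ± 0.14) and the proteoglycan Vcan at 5.26 ± 0.51. The hyaluronidase Hyal1 fell (−2.21 ± 0.25) and Hyal2 rose (1.83 ± 0.19). Without uninjured replicate 1 the changes of Tnc and Vcan were 8.13 and 6.09, and without day 1 replicate 4 that of Ly6a was 0.79 and 8 of the 12 fibro-adipogenic markers were lower. Without uninjured replicate 3, 2 of those markers were higher.

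Growth factor genes went both ways, with 8 of 22 higher and 11 lower, against 30.8% and 34.6% of all genes. The HGF receptor Met rose (1.90 ± 0.19), as did Plaur, the urokinase receptor (4.80 ± 0.39), while the FGF receptors Fgfr1 (−1.996 ± 0.14) and Fgfr4 (−2.02 ± 0.18) fell. Igf1, a growth factor, was among the genes with the lowest log2 changes, with 7.13, 5.41, 4.06 and 2.63 CPM at day 1 and 181, 109 and 125 CPM in uninjured muscle (−4.85 ± 0.34). So were Cdkn1c, a cell cycle inhibitor (−4.84 ± 0.53), Wnt4, a signal of quiescence (−4.83 ± 0.63), Nppc, a natriuretic peptide (−4.93 ± 0.76), Tac4, a tachykinin (−6.63 ± 0.61), and Mymk, the fusion protein myomaker (−5.32 ± 0.57). Mrln, an inhibitor of the calcium pump of myofibers (−5.05 ± 0.36), and Mylk4, a muscle kinase (−6.43 ± 0.78), were of this group too. Espnl had no counts at day 1 and 8.45, 4.57 and 26.5 CPM in uninjured muscle. Cacna2d4 (−6.48 ± 0.82), Slc22a3 (−6.18 ± 0.71) and Sbk2 (−5.53 ± 0.50) completed the 12. Without uninjured replicate 1 Plaur changed by 5.90. Among the lowest, single day 1 libraries moved Nppc to −5.81 (without replicate 1), Mymk to −5.93 (without replicate 2), Cacna2d4 and Sbk2 to −7.74 and −6.14 (without replicate 3), and Mylk4 and Slc22a3 to −7.36 and −6.90 (without replicate 4).

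Myofiber genes fell in 17 of 20 (median −1.75, against −0.69 at ZT4), and summed to 249 to 701 CPM at day 1 and 1695 to 2170.0 CPM in uninjured muscle. Atp2a1, the calcium pump of fast fibers, changed by −3.07 ± 0.34 at ZT16 and −0.93 ± 0.33 at ZT4, both called (difference −2.14 ± 0.47, adjusted p = 0.0123). All 5 tested Schwann cell markers fell, with the nerve growth factor receptor gene Ngfr at −2.34 ± 0.44, and 4 of 8 mural markers fell, with Rgs5 at −1.91 ± 0.40. Of 12 endothelial markers, Tek alone was called (−3.12 ± 0.19), and no erythroid gene of 4 was. Among the 11 markers of muscle stem cells themselves, 7 fell and 2 rose, with sums of 4739 to 5927 CPM at day 1 and 9152 to 10390.0 CPM in uninjured muscle. With only the 7 ZT16 libraries in the fit 3 of the 5 Schwann cell markers were lower, with uninjured replicate 2 alone 2 of the 8 mural markers were, and without day 1 replicate 4, 2 of the 12 endothelial markers were.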

How the data were processed

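RNA of sorted ZsGreen+ muscle stem cells was sequenced after SMART-seq v4 amplification, per the labels' protocols. Reads were processed with Trimmomatic 0.33, STAR 2.5.2 and RSEM 1.3.3 on mm10, per the submitters' processing notes. The values used are the authors' deposited expected counts per transcript, per the file headers. They were summed per gene and rounded to whole numbers for 43430 genes, of which 42546 were matched to GENCODE M21 for names and positions.

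All 22 libraries entered 1 edgeR 4.0.16 quasi-likelihood fit (R 4.3.3, TMM scaling with factors of 0.942 to 1.094, common dispersion 0.0444, robust fit, 1 mean per group), so that the spread is shared by all groups. Genes with too few counts by edgeR's own rule (at least 10 in the smallest group, 15 in all) were dropped, which kept 15084 and left out 28346. Adjusted p-values are Benjamini-Hochberg values over all genes tested, with a threshold of 0.05. The difference between the times is the ZT16 change minus the ZT4 change in the same fit. SMART-seq counts carry no molecular identifiers and the kit does not mark strand, so overlapping and antisense genes cannot be told apart. CPM are not divided by length and were not compared between genes.

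The members and lists were chosen with earlier results of these data known. Genes were named by a rule: the 12 highest and 12 lowest log2 changes among called genes with at least 10 CPM in the higher group and ranges that did not overlap, all clock, sterol and early response members, up to 4 members with the smallest p in each direction of every other list, the 10 smallest p for the difference between the times, and the genes Nampt, Ccl2, Pax7, Myod1, Myf5 and Myog. Some genes that this rule names are counted in their lists and not reported here by name. A gene without counts in a group was set at a floor of 3 counts over that group for a lower bound on its fold. Promoters were RefSeq windows of 300 bases, 250 before and 50 after the start. The fit was tested on simulated data. Alternatives were RLE and upper-quartile scaling, no filter, a replicate block, fewer libraries, limma 3.58.1 voom and DESeq2 1.42.0.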

Additional observations from a re-analysis of the deposited data

Results flagged for a closer look

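Among 221 named genes, 13 had 1 day 1 ZT16 library farther from the others than Dixon's critical value for 4 samples allows, and chance marks about 1 gene in 20. Replicate 4 gave 6 of the 13: Fos at 452.4 CPM, Mt2 at 290.9, Max at 86.7, Uqcrq at 233.6, Ly6a at 45.0 and Tmem97 at 203.1 CPM. Replicate 1 gave Npc1 at 30.3, Psma1 at 303.2 and Nfkb2 at 183.9 CPM. Replicate 2 gave Nadk at 274.7 and Dnajb9 at 55.6 CPM, and replicate 3 gave Nr1h3 at 3.05 and Pfkm at 29.96 CPM.

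The day 1 change at ZT16 minus that at ZT4 passed its own test in 84 named genes, and the values that follow are those log2 differences. In the clock they were 2.19 for Arntl, −2.12 for Per2, −1.23 for Per3, −1.49 for Cry1, −1.38 for Bhlhe41, −0.89 for Nr1d2, −1.01 for Dbp, −1.05 for Tef, −2.73 for Hlf, −3.25 for Nfil3 and −2.72 for Usp2. In sterol synthesis they were 1.72 for Mvk, 1.11 for Mvd, 2.26 for Idi1, 2.62 for Fdps, 1.99 for Fdft1, 2.65 for Sqle and 1.98 for Lss. They were 1.80 for Cyp51, 2.89 for Msmo1, 1.53 for Nsdhl, 1.26 for Hsd17b7, 0.73 for Ebp, 1.34 for Sc5d and 1.51 for Dhcr7. In sterol control they were 1.18 for Srebf2, 1.68 for Insig1, 2.10 for Stard4 and −2.56 for Abcg1.

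Among early factors the differences were −5.51 for Fos, −7.52 for Fosb, −2.20 for Fosl1, −2.96 for Fosl2, −4.17 for Jun, −4.71 for Junb, −2.73 for Jund and −3.70 for Egr1. They were −6.42 for Egr2, −8.42 for Atf3, −4.90 for Klf2, −4.77 for Klf4, −1.62 for Klf6, −5.92 for Nr4a1, −4.13 for Nr4a2 and −6.17 for Csrnp1. Among feedback regulators they were −2.95 for Dusp1, −5.57 for Socs3, −4.88 for Zfp36, −2.50 for Ier2, −2.69 for Ier3, −4.39 for Btg2, −2.95 for Gadd45b and −2.33 for Gadd45g. Without uninjured ZT16 replicate 1 they were −6.78 for Fosb, −5.30 for Nr4a1 and −5.43 for Csrnp1. Without uninjured ZT4 replicate 1 that of Egr2 was −7.07, without replicate 2 those of Jun, Klf2, Zfp36 and Ier3 were −4.86, −5.86, −5.55 and −3.47, and without replicate 3 that of Klf4 was −5.44.

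Growth and metabolism gave −0.82 for Rbl2, 1.25 for Cenpe, 0.54 for Nhp2, 0.59 for Eno1, −1.94 for Slc2a3, 0.50 for Uqcrq, 0.42 for Atp5b, −0.76 for Nampt and −3.82 for Nnmt. Stress genes gave −2.42 for Mt1, 0.60 for Creld2, −0.67 for Herpud1, −1.33 for Dnajb9 and −1.62 for Ddit3. Immune and matrix genes gave −3.16 for Ccl2, −0.96 for Csf1, −3.75 for Cxcl5, −3.16 for Tnfaip2, −3.71 for Tnfaip3, −2.74 for Ifit1, −1.59 for Fn1 and 0.89 for Hyal2. Myofiber genes gave −2.14 for Atp2a1 and −1.77 for Tnnc2. The remaining 7 were 1.47 for Dbi, −1.44 for Trip10, 1.88 for Iqsec3, −2.02 for Slc19a2, 1.57 for Tmem97, 1.25 for Hsd17b12 and 0.87 for Anxa2. Without uninjured ZT4 replicate 1 the differences of Cenpe, Cxcl5 and Tnfaip2 were 0.65, −5.45 and −5.34, and without uninjured ZT16 replicate 1 those of Cxcl5, Tnfaip2 and Tnfaip3 were −2.40, −2.35 and −2.55. Of the 84, 50 kept their call when each of the 14 libraries was left out in turn and 34 did not.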

How the results depend on the processing

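Between day 1 and uninjured muscle at ZT16, 9191 to 9571 genes were called when single libraries were left out, and 187 of 200 named calls held throughout. Many of the named genes were picked from these same data for a small p or a large change. That choice favours calls that hold, so the share does not describe all called genes. The other alternatives called 7941 to 9955. The difference between the times was less stable, at 1125 genes with all libraries, 648 to 1596 when single libraries were left out, 737 with limma voom, 514 with the 14 libraries alone and 134 with uninjured ZT16 replicate 2 alone. Among the single-library omissions, the lowest counts came without uninjured ZT16 replicate 1 (648) and replicate 3 (728), and the highest without replicate 2. Where 1 uninjured library remained, it was assumed to vary like the other groups.

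With uninjured ZT16 replicate 2 alone, the ZT16 change turned positive for Nfil3 (1.92), Fos (2.71), Fosb (4.32), Fosl2 (1.03), Jun (1.16), Junb (1.32), Jund (0.16), Egr1 (2.28), Egr2 (3.22), Atf3 (6.82), Klf2 (2.28), Klf4 (1.05), Nr4a1 (3.31), Nr4a2 (4.58), Csrnp1 (4.20), Dusp1 (0.053), Socs3 (2.81), Zfp36 (2.15), Ier2 (0.12), Btg2 (1.23), Gadd45a (0.60), Slc2a3 (0.32), Nnmt (0.17) and Tnfaip3 (1.29). The medians of the early factors and feedback regulators did so too (2.28 and 2.10). The difference between the times turned positive for Egr1 (0.71) and Nr4a2 (0.36). The cause was not tested.

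Day 1 and uninjured libraries of the same number did not deviate together (correlations of 0.089, −0.069 and 0.102), so the numbers were not used as pairs. A replicate block gave 9655 and 1107 calls, and with only the 7 libraries compared, a setting chosen after seeing the data, 8292. Intervals cover counting and library spread only, and with 3 uninjured libraries the split among them cannot be resolved further.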
